A study of Mus musculus with 47 samples.

Results

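Lymphoblastic tumours of TLX1 transgenic mice were compared with those of p53 knockout mice, together 9 of the 47 mouse T-cell tumours of the series. The members were the 6 arrays titled TLX1 transgenic, which the labels also mark as TLX1 positive, and the 3 titled p53 knockout, which the labels mark as TLX1 negative. The remaining 38 tumours, all TLX1 negative, came from 12 backgrounds: beta-catenin, LMO1, Nup98HoxD13, Pokemon, Tal1 and ThPOK transgenic, olig1-LMO1 and Tal1-LMO2 double transgenic, E2A knockout, rag E2A knockout, Ikaros Plastic, and Cdkn2a knockout with retroviral insertional mutagenesis. The labels used here give no strain, age, sex, transgene promoter or treatment, and they do not say that the tumours came from separate mice, so p-values measure only the spread between these samples.

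TLX1 (HOX11) is a homeobox transcription factor that is silent in normal thymocytes and is switched on by translocation in a subset of human T-cell acute lymphoblastic leukaemia. The p53 protein is a transcription factor that answers DNA damage and oncogene stress by stopping the cell cycle or starting apoptosis, and mice without it develop thymic lymphoma. The comparison asked which transcripts set both kinds of tumour apart from the other 12 backgrounds, and which set them apart from each other.

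Levels are deposited array signals in arbitrary units. Differences are on a log2 scale after adding 15.9 to the signal, with their standard error, and 1 unit is a doubling. A gene was called higher or lower at a Benjamini-Hochberg adjusted p under 0.05 in limma over all 8810 genes tested. One fit with a mean for each of the 14 backgrounds gave 3 differences: TLX1 minus p53, TLX1 minus the mean of the other 12 backgrounds, and p53 minus that same mean. The last 2 share their 38 control tumours, so any error in those controls enters both.

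Some features of the arrays moved with the groups and stand beside every result below. In p53 knockout 2, transcripts that define T cells were nearly missing: Cd3e, the epsilon chain of the T cell receptor complex, gave a signal of 84.4 there against 2110 and 2330 in the other p53 tumours and 1320 to 3110 in the TLX1 tumours. Summed over 23 genes of the T cell receptor and its proximal signalling, the signal was 6275 in p53 knockout 2, 32761 and 31572 in the other p53 tumours, 22262 to 31285 in the TLX1 tumours and 15365 to 46400 in the other 38. Markers of vessels and matrix moved the other way. The summed signal of 17 endothelial genes was 26413 in p53 knockout 2, 1164 and 1334 in the other p53 tumours and 676 to 2606 in the TLX1 tumours, and that of 26 stromal genes was 65590, against 10301, 8360 and 3910 to 19480. In these bulk samples fewer cells of a type and less RNA per cell cannot be told apart. Whether p53 knockout 2 was a T-cell tumour was not tested.

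The second feature was RNA quality. The log2 3'/5' signal ratio of the control transcripts Gapdh and Actb, averaged, was 0.52, 2.79, 0.90, 0.37, 2.55 and 1.94 in TLX1 transgenic 1 to 6 and 0.97, 0.65 and 0.07 in p53 knockout 1 to 3. In the other 38 tumours it ran from -0.17 to 0.75 with a median of -0.04, so 5 of the 9 tumours lay above all 38. Between the TLX1 and p53 tumours the ratios overlapped, with a Gapdh ratio of 1.36 ± 1.15 (SD, n = 6) against 0.35 ± 0.45 (SD, n = 3; exact permutation p = 0.238, two-sided, 84 splits, smallest possible 0.0119). The third feature was myeloid. The summed signal of 14 neutrophil and granule genes was 77220 in TLX1 transgenic 2, against a median of 1286 in the 6 TLX1 tumours, 334, 1044 and 386 in the p53 tumours and 185 to 5075 in the other 38. The part of each feature in the gene results was not tested beyond the values with and without the tumours concerned, and with the ratio as a covariate, given below.

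**Figure D1:**
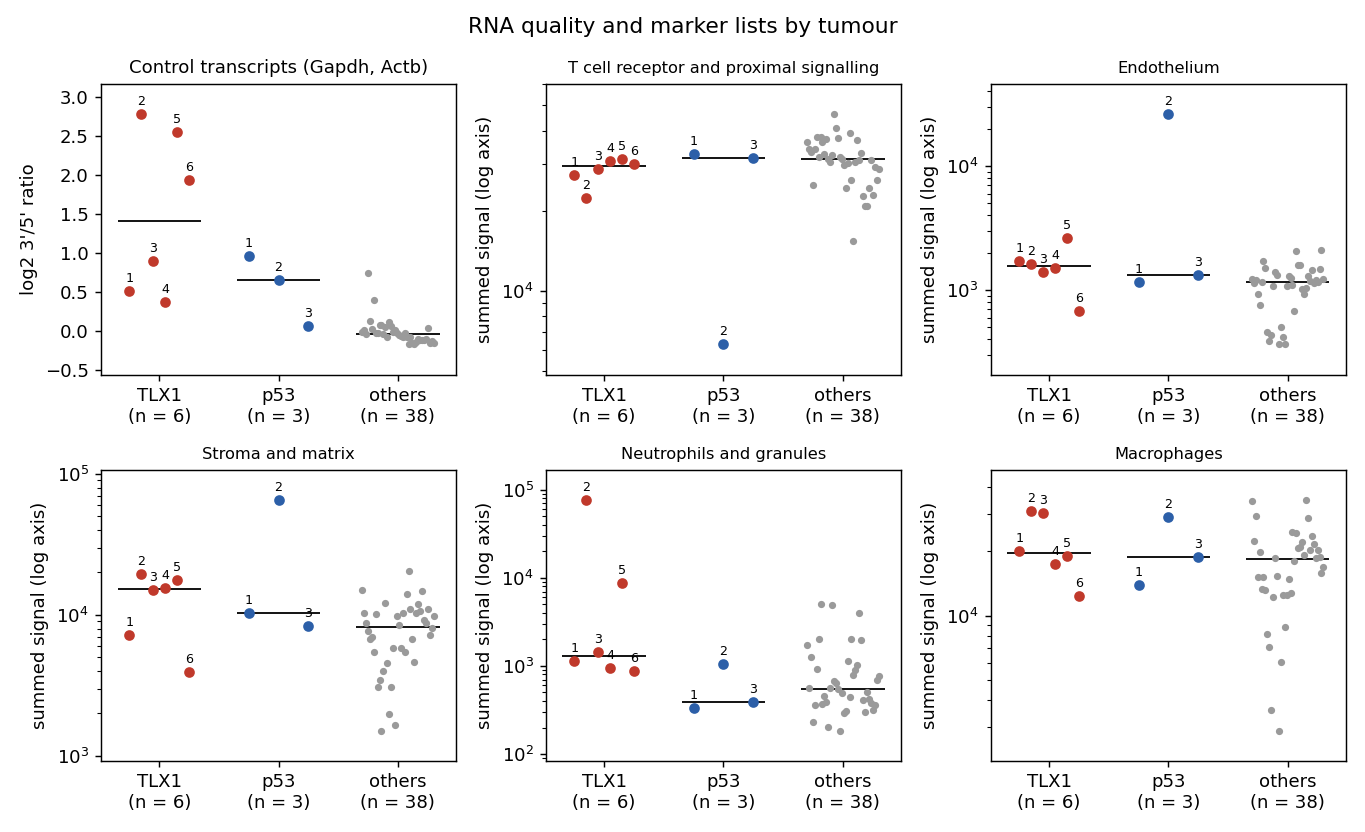
Control-transcript ratio (log2, linear axis) and summed signal of 5 marker lists (arbitrary units, log axis) in the 6 TLX1 transgenic (red), 3 p53 knockout (blue) and 38 other tumours (grey). Digits are tumour numbers and bars are medians. The p53 knockout 2 tumour is lowest in T cell receptor genes at 6275 and highest in endothelial genes at 26413, and TLX1 transgenic 2 is highest in neutrophil genes at 77220.

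Whole profiles were compared first. Similarity was Pearson's r of gene-centred values over the tested genes, given as a description. TLX1 transgenic 1 had p53 knockout 1 as its nearest profile (r = 0.381), as did TLX1 transgenic 6 (r = 0.430), while the other 4 had another TLX1 tumour nearest, with r from 0.387 to 0.525. The p53 tumour closest to TLX1 transgenic 2, 3 and 5 was p53 knockout 2, with r of 0.324, 0.190 and 0.379. For TLX1 transgenic 3 and 5 the mean r with the LMO1 tumours (0.157 and 0.191) exceeded that with the p53 tumours (0.133 and 0.184). In return p53 knockout 1 had TLX1 transgenic 6 nearest. The other p53 tumours did not: p53 knockout 2 was nearest to an Ikaros Plastic tumour (r = 0.382) and p53 knockout 3 to a Nup98HoxD13 tumour (r = 0.288).

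The p53 tumours resembled each other less than p53 knockout 1 resembled the TLX1 group. Among the 3 p53 tumours r was 0.108, 0.231 and 0.036, whereas p53 knockout 1, 2 and 3 had a mean r of 0.278, 0.198 and 0.057 with the 6 TLX1 tumours. The count of 2 TLX1 tumours nearest to a p53 tumour stayed at 2 without p53 knockout 2 and with the marker lists taken out, and was 0 without p53 knockout 1. The 3 p53 tumours are therefore given singly wherever a result turns on them.

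**Figure D2:**
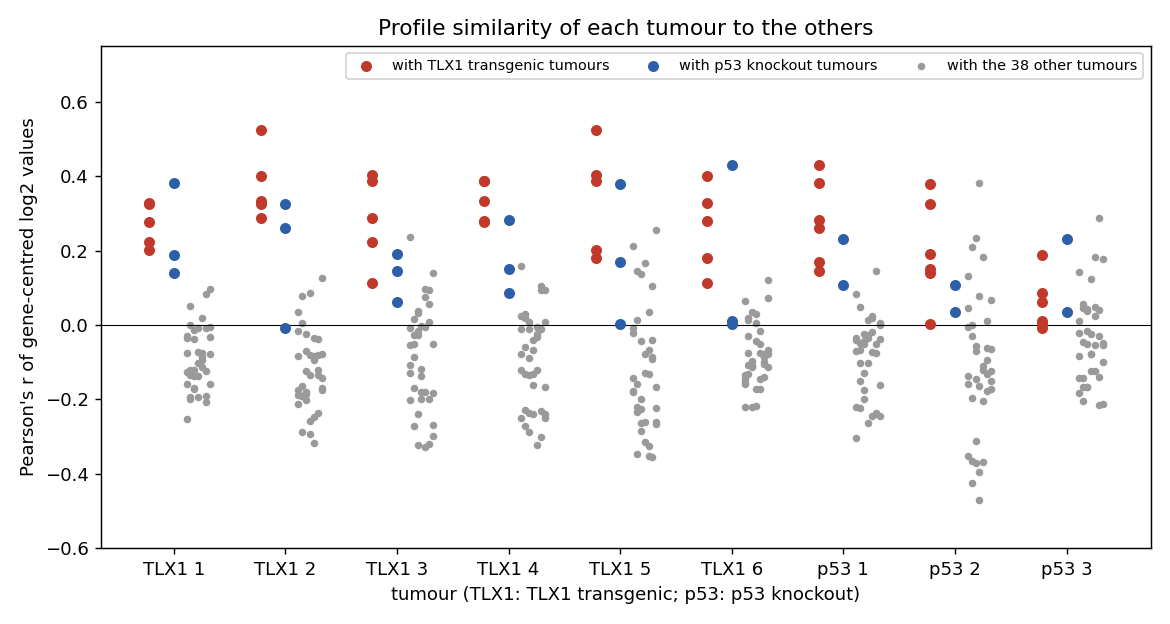
Pearson's r of gene-centred log2 values between each of the 9 tumours (x axis) and the TLX1 transgenic (red), p53 knockout (blue) and other 38 tumours (grey); points are single tumours. The highest blue point lies above the red points for TLX1 1 (0.381), TLX1 6 (0.430) and p53 3 (0.231), and p53 2 has its highest value, 0.382, with a grey tumour.

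Against the other 12 backgrounds, 3064 genes were called for TLX1 (34.8% of those tested), 1852 higher (21.0%) and 1212 lower (13.8%). For p53 2120 were called (24.1%), 1207 higher (13.7%) and 913 lower (10.4%). Called in both and in the same direction were 1125 genes (12.8%), 645 higher (7.32%) and 480 lower (5.45%). They made up 36.7% of the TLX1 calls and 53.1% of the p53 calls. Of the 1125, 11 were also called between TLX1 and p53 tumours, among them Mmp14, a membrane-bound matrix protease, which was higher in both but more so in p53 tumours (2.76 against 0.81), and Sh2d1a, the adaptor SAP of T and NK cell signalling, which was lower in both but more so in p53 tumours (-2.92 against -0.99).

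Without p53 knockout 2 the p53 calls numbered 749 (8.50%), 456 higher (5.18%) and 293 lower (3.33%). The shared ones then numbered 499 (5.66%), 300 higher (3.41%) and 199 lower (2.26%). Of the 1125, 398 were called both with and without that tumour (4.52%), 231 higher (2.62%) and 167 lower (1.90%). Once the 3'/5' ratio entered the fit, 178 genes were higher (2.02%) and 88 lower (0.999%) in both. Without TLX1 transgenic 2, 5 and 6, the tumours with the highest ratios, the counts were 387 (4.39%) and 255 (2.89%). The genes named next were called in both groups with and without p53 knockout 2.

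Adarb1, higher in both groups, encodes ADAR2, an enzyme that edits adenosine to inosine in double-stranded RNA. Its signal was 111, 269, 172, 253, 137 and 310 in TLX1 transgenic 1 to 6 and 115, 107 and 67.0 in p53 knockout 1 to 3, against 1.95 to 32.5 with a median of 7.08 in the other 38. All 9 tumours lay above all 38. The difference was 3.18 ± 0.19 for TLX1 (adjusted p = 1.33e-15) and 2.23 ± 0.26 for p53 (adjusted p = 2.53e-07), and 2.15 without p53 knockout 2. Adjusted for the 3'/5' ratio the differences were 2.85 and 2.12. TLX1 and p53 tumours overlapped in Adarb1 and their difference, 0.94 ± 0.30, was not called (adjusted p = 0.0646). A second Adarb1 probe set, under the median of its array in all 47 tumours, differed by 0.47 and 0.33 only, so the finding rests on 1 probe set.

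In the opposite direction the leading shared genes included Gsdme and Sephs2. Gsdme encodes gasdermin E, which forms membrane pores after cleavage by caspase 3. Its signal was 207, 76.4, 47.4, 32.8, 34.7 and 52.8 in the TLX1 tumours and 101, 124 and 196 in the p53 tumours, and 215 to 1550 with a median of 631 in the others. All 9 lay below all 38, TLX1 transgenic 1 and p53 knockout 3 by the least. The differences were -3.02 ± 0.24 (adjusted p = 1.92e-11) and -2.06 ± 0.33 (adjusted p = 4.64e-05), but a second, dimmer probe set gave -0.14 and 0.09.

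Sephs2 encodes a selenophosphate synthetase, which makes the selenium donor for selenoproteins. The Sephs2 signal was 170, 330, 241, 321, 180 and 236 in the TLX1 tumours, 333, 221 and 298 in the p53 tumours and 469 to 3020 in the others. The 9 tumours formed a narrow band below every other tumour. The differences were -2.18 ± 0.13 and -1.97 ± 0.17, and they were -2.18 and -1.96 with the ratio as a covariate. Its other 2 probe sets were lower by less, -0.57 and -0.32 for TLX1 and -0.91 and -0.75 for p53, and did not separate the groups.

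The promoters of these 3 genes, from 250 bases before to 50 after the RefSeq start site (GRCm38.p6), are shown because these genes set all 9 tumours apart from the other 38. They were searched on both strands for TAATT, a core bound by many homeodomain proteins, which 27.0% of all 32851 promoters of this length hold, and for the p53 half-site, which 8.36% hold. Capitals mark TAATT: it occurred once, in Sephs2, and no p53 half-site was found in any of the 3. A match or its lack is a description of these letters only.
Adarb1, chr10:77418224-77418523, minus strand: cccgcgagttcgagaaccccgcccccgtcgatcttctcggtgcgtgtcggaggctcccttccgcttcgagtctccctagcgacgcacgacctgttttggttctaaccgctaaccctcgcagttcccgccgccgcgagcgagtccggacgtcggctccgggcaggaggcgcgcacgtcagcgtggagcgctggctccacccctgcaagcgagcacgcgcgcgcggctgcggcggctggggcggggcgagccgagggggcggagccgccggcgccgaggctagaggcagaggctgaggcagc
Gsdme, chr6:50261720-50262019, minus strand: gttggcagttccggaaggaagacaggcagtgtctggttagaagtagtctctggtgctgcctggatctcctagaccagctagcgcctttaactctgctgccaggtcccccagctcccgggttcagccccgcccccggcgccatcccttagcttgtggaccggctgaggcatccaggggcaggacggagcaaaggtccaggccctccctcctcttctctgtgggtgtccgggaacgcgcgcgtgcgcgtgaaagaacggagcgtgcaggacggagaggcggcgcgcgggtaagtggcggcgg
Sephs2, chr7:127274010-127274309, minus strand: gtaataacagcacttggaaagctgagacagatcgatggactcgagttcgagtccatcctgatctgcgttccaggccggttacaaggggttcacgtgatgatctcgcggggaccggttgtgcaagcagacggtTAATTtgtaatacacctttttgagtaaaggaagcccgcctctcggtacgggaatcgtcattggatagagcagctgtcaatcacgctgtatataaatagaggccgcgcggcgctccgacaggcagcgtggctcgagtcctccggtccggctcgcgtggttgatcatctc

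In all, 11 genes placed the 9 tumours entirely outside the other 38 (0.125% of those tested), 6 above (0.0681%) and 5 below (0.0568%). Beside Adarb1 the genes above were Capzb (capping protein of actin filaments), Clasrp, Fam53a, Sdf4 (a calcium-binding Golgi protein) and Tie1, a receptor of endothelial cells. Beside Gsdme and Sephs2 those below were Actr6, Agk (acylglycerol kinase of mitochondria) and Riok2 (a kinase of ribosome maturation). Capzb gave 2090 to 2990 in the 9 tumours and 401 to 1890 in the others, with differences of 1.06 ± 0.12 and 1.04 ± 0.17, and the groups differed by 0.02 ± 0.19 (adjusted p = 0.962).

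Tie1 needs the marker values beside it. Its signal was 72.9, 60.8, 58.1, 60.3, 104 and 34.0 in the TLX1 tumours, 63.6, 1080 and 39.1 in the p53 tumours and 1.00 to 29.1 in the others. The p53 knockout 2 tumour, with the highest sum of endothelial signals, stood far above the rest. Without it the p53 difference fell from 2.81 to 1.46 (adjusted p = 0.000977) and was still called.

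Among the 10 genes highest in both groups by the naming rule were Trio and Kalrn, paralogous guanine nucleotide exchange factors for Rac1 and RhoA. The Trio signal was 468, 523, 195, 747, 314 and 266 in the TLX1 tumours, 332, 768 and 430 in the p53 tumours and 9.35 to 334 in the others. Its differences were 2.13 ± 0.30 and 2.45 ± 0.41, and a second probe set gave 1.55 and 1.88. Kalrn differed by 1.74 ± 0.24 and 1.95 ± 0.33 through 1 of its 3 probe sets; the other two lay under the array median everywhere.

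Ndufs5, a subunit of respiratory complex I, gave 1350, 1140, 1180, 1390, 1060 and 1550 in the TLX1 tumours and 2480, 871 and 1770 in the p53 tumours. The other tumours ran from 105 to 1640 with a median of 477, so the ranges overlapped. High Ndufs5 was not particular to the 9 tumours. ThPOK tumours gave 1595, 1306 and 1175 and Pokemon tumours 1369 and 1504, whereas E2A knockout tumours gave 139 and 108. Its differences were 1.57 ± 0.18 and 1.87 ± 0.25, and 2.29 for p53 without p53 knockout 2. Vamp3, a SNARE protein of recycling endosomes, differed by 1.54 ± 0.18 and 1.83 ± 0.24 through 1 of its 5 probe sets, while a dim one gave -0.95 and 0.09.

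The remaining named genes higher in both were Klf9 (a Krüppel-like transcription factor), Myzap, Cox6a2 (a cytochrome c oxidase subunit of muscle), Frmd6 and Rgs5 (a regulator of G-protein signalling and a known pericyte marker). Klf9 was uneven within both groups: 623, 104, 308, 277, 1220 and 70.7 in the TLX1 tumours and 1110, 863 and 139 in the p53 tumours. Klf9 differed by 1.74 ± 0.42 and 2.56 ± 0.57. Rgs5 differed by 1.86 and 2.94, but its other 3 probe sets gave 0.23, -0.84 and -0.35 for TLX1. With the ratio as a covariate 7 of these 10 genes were called in both groups; Rgs5, Klf9 and Cox6a2 were not called for TLX1.

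Of the 10 genes lowest in both, 5 were called in both groups with the ratio as a covariate: Gsdme, Sephs2, Ptp4a2, AI506816 and 6820431F20Rik. Sp3 (a zinc-finger transcription factor), Agfg1, Gstm3 (a glutathione transferase), Prmt7 (an arginine methyltransferase) and Zfp207 (a kinetochore-associated protein) were not called for TLX1 there. Ptp4a2, the phosphatase PRL-2, gave 898, 80.8, 705, 932, 98.3 and 137 in the TLX1 tumours, lowest in the 3 with the highest 3'/5' ratio. Its TLX1 difference was -3.48 and became -1.21 with the ratio as a covariate, and another of its probe sets gave 0.97.

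AI506816 was at background in all 9 tumours, with signals of 2.51 to 27.2 in the TLX1 tumours and 3.06, 6.12 and 11.3 in the p53 tumours. It was not particular to them: of the other 12 backgrounds, 5 (Ikaros Plastic, LMO1, Nup98HoxD13, Pokemon and ThPOK) had means of 1.99 to 18.5, and the rest had means of 465 to 863. The tumours thus fell into separate high and low sets by background.

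**Figure D3:**
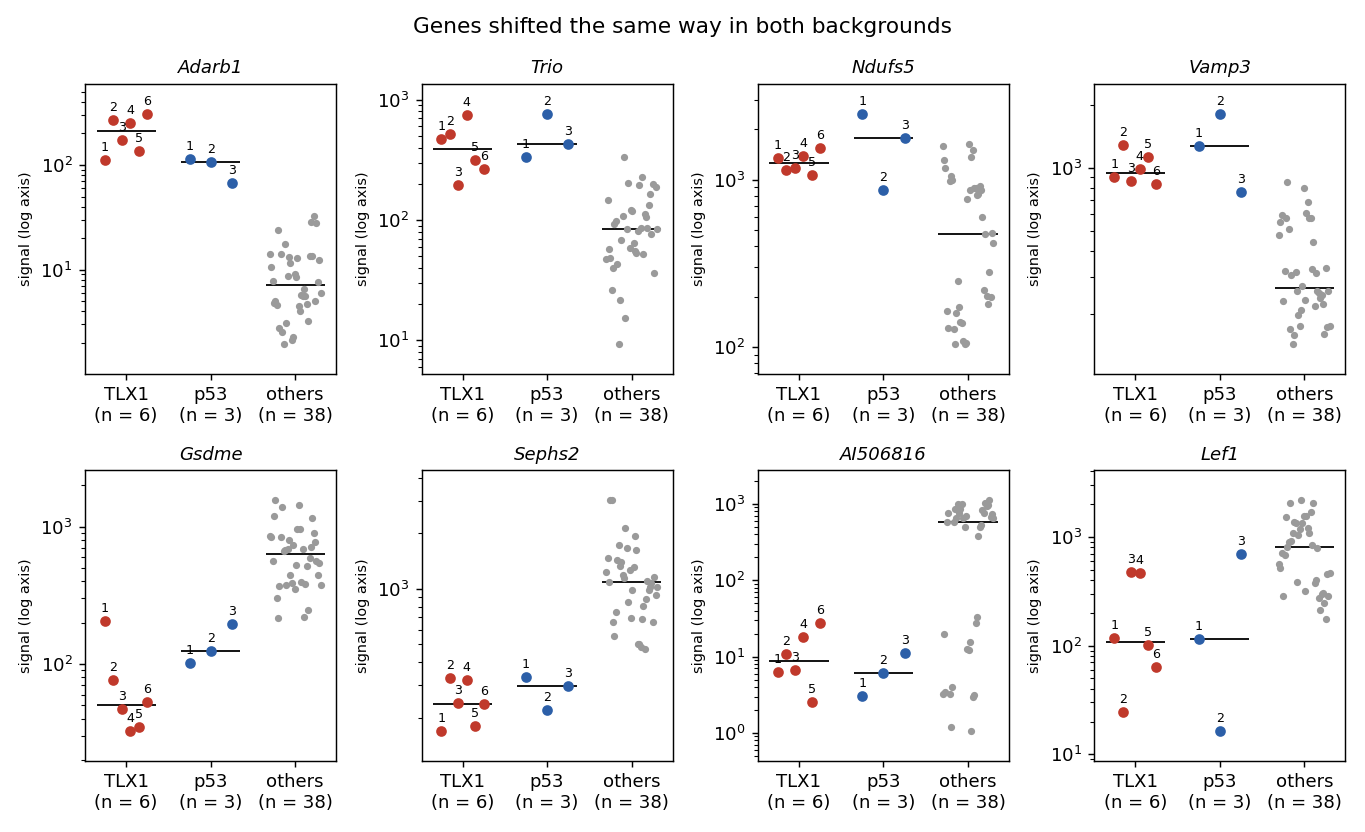
Signals (arbitrary units, log axis) of 8 genes with differences in the same direction in both backgrounds, in TLX1 transgenic (red, n = 6), p53 knockout (blue, n = 3) and other tumours (grey, n = 38); bars are medians and digits tumour numbers. Adarb1 lies above 32.5, and Gsdme below 215, in all 9 tumours only, whereas AI506816 is as low in part of the grey tumours and Lef1 is spread from 16.5 to 693.

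Growth and T lineage genes lower in both groups mostly lost their p53 call without p53 knockout 2. The transcription factor Myc was called lower for TLX1 (-1.47 ± 0.22) and for p53 (-1.14 ± 0.30): signals were 647, 213, 930, 452, 185 and 364 against 316, 483 and 830, with 599 to 3120 in the others. Without p53 knockout 2 the Myc difference was -1.11 and not called (adjusted p = 0.0510). Of 29 tested genes of MYC and its targets, 8 were lower in both groups and 0 higher, with medians of -0.31 for TLX1 and -0.29 for p53 against 0.08 and 0.05 over all genes. Over all genes 5.45% were lower in both. Without p53 knockout 2 only Ddx21, an RNA helicase of ribosome synthesis, was lower in both (-0.56 and -0.91), and with the ratio as a covariate 2 were.

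Replication and mitosis genes were counted in the same way, beside 5.45% of all genes lower in both, and 2.26% without p53 knockout 2. Of 40 replication genes, 7 were lower in both (Mcm2, Orc2, Pcna, Pola1, Prim2, Rfc5 and Rpa3) and 1 (Prim2, a primase subunit) without p53 knockout 2, when Rfc1 and Rfc2 of the clamp loader were higher in both. Of 43 spindle checkpoint and segregation genes, 5 were lower in both (Mad2l1, Cenph, Zwint, Stag1 and Ect2), and Zwint alone without p53 knockout 2. With the ratio as a covariate 0 genes of either list were lower in both, as the TLX1 calls fell from 10 and 9 to 0. Mad2l1, a core protein of the spindle checkpoint, gave 1420, 537, 818, 953, 586 and 873 in the TLX1 tumours and 894, 222 and 965 in the p53 tumours. The lowest of these was p53 knockout 2, and the p53 difference for Mad2l1 went from -1.21 (adjusted p = 0.00109) to -0.55 (adjusted p = 0.181) without it. Bub1 and Chek1, kinases of the spindle and the DNA damage checkpoint, were called in neither group.

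Of 21 tested T lineage regulators, 5 were lower in both groups (Lef1, Ikzf1, Runx1, Tox and Tcf12), and none of these without p53 knockout 2 or with the ratio as a covariate. The share lower in both over all genes was 5.45%. Lef1, a partner of beta-catenin in thymocytes, gave 116, 24.7, 476, 466, 101 and 63.8 in the TLX1 tumours and 115, 16.5 and 693 in the p53 tumours, with 177 to 2160 in the others. Only p53 knockout 3 was near the other backgrounds' median of 800. The Lef1 differences were -2.50 ± 0.41 and -2.57 ± 0.55, and -1.49 for p53 without p53 knockout 2 (adjusted p = 0.113). Zbtb17, which encodes the MYC partner MIZ-1, was the 1 regulator of this list higher in both without that tumour.

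Of 21 genes of the list of cyclins and CDK inhibitors, 3 were lower in both groups with and without p53 knockout 2: Cdk4, a kinase that drives entry into the cycle, Cdkn1b (the inhibitor p27) and Rbl1 (the pocket protein p107). Over all genes 1.90% were lower in both groups with and without that tumour. With the ratio as a covariate, or without TLX1 transgenic 2, 5 and 6, 0 of this list were lower in both. Of 20 ribosomal protein genes, 15 were lower for p53, 8 without p53 knockout 2 and 6 after quantile normalization, and 3 were lower for TLX1. Over all genes 10.4% were lower for p53, 3.33% without p53 knockout 2, and 13.8% for TLX1, so the TLX1 count was near the share over all genes. The ribosomal list's median was -0.52 for p53 and -0.15 for TLX1. Of these genes Rps19 (0.60 ± 0.15) and Rps4x (0.55 ± 0.16) also differed between the groups, and neither was called without p53 knockout 2.

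Of 26 stromal genes, 13 were higher in both groups, 15 for TLX1 and 21 for p53, with none lower, against 7.32% higher in both over all genes. Without p53 knockout 2 the shared ones were Col4a1, Col4a2, Col5a1 and Col6a1. Without TLX1 transgenic 2, 5 and 6 there were 4 shared and 5 TLX1 calls, and with the ratio as a covariate 0 and 1. Sparc, a matrix glycoprotein, gave 250, 2500, 1190, 1640, 1290 and 352 in the TLX1 tumours and 981, 6720 and 825 in the p53 tumours, against 5.71 to 1520. The Sparc difference for p53 was 2.60 with and 1.64 without p53 knockout 2 (adjusted p = 0.0966). Of 17 endothelial genes, 16 were higher for p53 and 4 for TLX1, against 13.7% and 21.0% over all genes. Leaving out p53 knockout 2 gave 1, Tie1, for p53 and 12 for TLX1, beside 456 and 2053 of all 8810 genes. The endothelial list's median for TLX1 was 0.59 with and without that tumour. With the ratio as a covariate the counts were 15 for p53 and 1 for TLX1, beside 1033 and 284 of all genes.

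Directly compared, TLX1 and p53 tumours differed in 303 genes (3.44%), 164 higher in TLX1 (1.86%) and 139 lower (1.58%), of which 88 and 71 differed at least 2-fold. Without p53 knockout 2 the count was 92 (1.04%), and 49 genes were called both with and without it (0.556%), 23 higher (0.261%) and 26 lower (0.295%). Signals of the 6 TLX1 and 3 p53 tumours did not overlap in 321 genes (3.64%), with TLX1 above in 199 (2.26%) and below in 122 (1.38%). The calls lean on the spread of all 47 arrays: a fit on the 9 tumours alone called 2 genes, Erdr1 and Dlx1, with 707 at an unadjusted p under 0.05. Array weights left 4 (Erdr1, Dlx1, Cap1 and Stambpl1, with 662 at an unadjusted p under 0.05) and the fit with the 3'/5' ratio 54 (0.613%). Leaving out p53 knockout 1 gave 962 calls and leaving out TLX1 transgenic 1 gave 494.

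**Figure D4:**
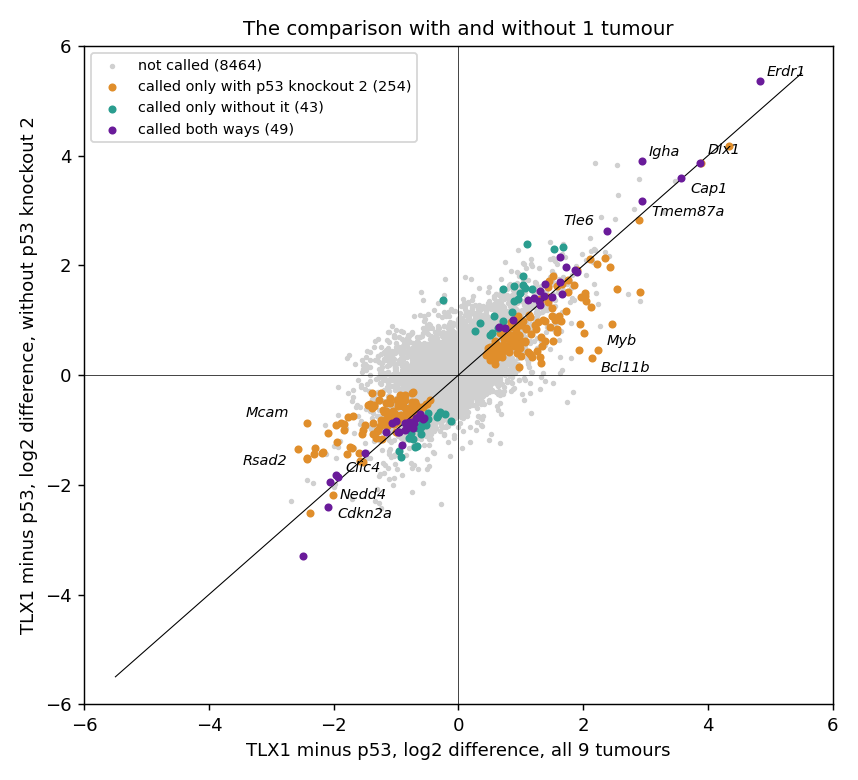
Log2 difference TLX1 minus p53 for each of the 8810 genes with all 9 tumours (x axis) and without p53 knockout 2 (y axis); the line marks equal values. Of the 303 genes called with all tumours, 49 (purple) were called both ways and 254 (orange) were not called without p53 knockout 2, such as Bcl11b and Myb, while 43 (green) were called only without it.

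Dlx1 and Erdr1 were the 2 genes called in the 9 tumours alone. Dlx1, a homeobox gene of the distal-less family that acts mainly in forebrain and limb development, gave 355, 245, 304, 322, 174 and 190 in the TLX1 tumours and 3.81, 2.67 and 1.65 in the p53 tumours. All TLX1 tumours were well above all p53 tumours, where the signal was at background. The difference was 3.87 ± 0.44 (adjusted p = 1.36e-06) with and 3.87 ± 0.52 without p53 knockout 2. Dlx1 was not limited to TLX1 tumours: the other 38 ran from 0.691 to 288, with background means of 160 in olig1-LMO1 and 145 in Nup98HoxD13. Of 16 tested homeobox genes and cofactors Dlx1 was the 1 called between the groups.

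Erdr1, which encodes a secreted factor named for erythroid differentiation, gave 3310, 3430, 8440, 3700, 4650 and 3880 in the TLX1 tumours and 218, 299 and 31.7 in the p53 tumours. The groups were far apart, with a difference of 4.83 ± 0.60 (adjusted p = 4.71e-06). TLX1 tumours were above the mean of the other backgrounds by 1.85 ± 0.38 while the p53 difference was -2.98 ± 0.51. High Erdr1 was not particular to TLX1 tumours. Cdkn2a knockout tumours gave 610 to 6746, Tal1-LMO2 tumours 2362 to 6742 and rag E2A tumours 3604 and 3566. Low Erdr1 was shared by the Nup98HoxD13, Pokemon and ThPOK backgrounds, with means of 135, 51.3 and 41.4.

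Cap1 and Tmem87a were called lower in p53 tumours against the other backgrounds and were not called in TLX1 tumours. Cap1, a cyclase-associated protein that recycles actin monomers, gave 593, 805, 1320, 631, 161 and 982 in the TLX1 tumours and 33.8, 40.0 and 43.0 in the p53 tumours. The groups did not overlap, and the difference was 3.57 ± 0.45 (adjusted p = 5.14e-06). Cap1 differed from the other backgrounds by 0.19 in TLX1 tumours, not called, and by -3.38 ± 0.39 in p53 tumours, and its second probe set also differed between the groups, by 2.13. The ThPOK tumours had a Cap1 mean as low, 45.9. Tmem87a, a Golgi membrane protein, gave 181 to 646 in the TLX1 tumours and 9.76, 39.2 and 30.8 in the p53 tumours, a difference of 2.95 ± 0.58 (adjusted p = 0.00479). Against the other backgrounds Tmem87a differed by 0.53 in TLX1 tumours and by -2.42 in p53 tumours. The Nup98HoxD13 tumours were as low in Tmem87a, at 28.1, 10.2 and 3.37, and the Pokemon tumours gave 8.71 and 523.

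Tle6, a Groucho-family co-repressor, was high in TLX1 tumours instead: 243, 611, 140, 917, 215 and 184 against 56.8, 70.4 and 21.1, with 1.42 to 213 in the others. It differed by 2.38 ± 0.47 from p53 tumours and by 2.33 ± 0.30 from the other backgrounds, where p53 tumours differed by -0.06. Foxo3, a forkhead factor of apoptosis and quiescence, was also higher in TLX1 tumours (adjusted p = 0.00518), though its other 2 probe sets gave 0.51 and 0.09. Igha, the IgA heavy chain of plasma cells, was higher by 2.94 ± 0.74, with 585 to 7290 in TLX1 tumours and 152, 878 and 69.0 in p53 tumours. The summed signal of 13 B cell and immunoglobulin genes was 5092 to 31996 in TLX1 tumours and 5618, 7648 and 3840 in p53 tumours, and its part in the Igha difference was not tested.

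The other named genes higher in TLX1 tumours were Stambpl1 (a deubiquitinase, 1.90 ± 0.38), Emp3 (1.73 ± 0.34), Ddx19b (an RNA helicase of mRNA export, 1.65 ± 0.31), Lgals1 (galectin-1, 1.62 ± 0.36) and Dglucy (1.62 ± 0.38). Lgals1 went in opposite directions against the other 12 backgrounds, 0.70 in TLX1 and -0.93 in p53 tumours. Of the 12 named genes in this direction, all 6 TLX1 tumours exceeded all 3 p53 tumours in 7, beside 2.26% over all genes. The 12 were chosen by their differences in these same tumours, so this count only describes them. With the ratio as a covariate 8 were called. Genes called in opposite directions in the 2 groups numbered 15 (0.170%), and 7 (0.0795%) without p53 knockout 2, among them Erdr1, Lgals1, Hal and Elp5.

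Among genes lower in TLX1 tumours, Cdkn2a belongs to the p53 pathway. It encodes p16Ink4a, an inhibitor of CDK4 and CDK6, and p19Arf, which stabilises p53 by binding MDM2. Cdkn2a signals were 160, 23.7, 49.3, 27.4, 46.4 and 24.3 in the TLX1 tumours and 271, 148 and 345 in the p53 tumours, against 2.36 to 129 in the others. The 3 p53 tumours lay above all 38 other tumours, and TLX1 transgenic 1 alone of the TLX1 tumours reached their range. Those 38 include the 9 Cdkn2a knockout tumours, which gave 12.7 to 37.3. TLX1 transgenic 2 to 6, at 23.7 to 49.3, were in or near that range. The Cdkn2a difference between TLX1 and p53 tumours was -2.08 ± 0.44 (adjusted p = 0.00709) and -2.41 ± 0.50 without p53 knockout 2 (adjusted p = 0.0140). With the ratio as a covariate it was -1.63 and not called (adjusted p = 0.0898).

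Clic4 and Nedd4 were lower in TLX1 tumours in all their probe sets. Clic4, a chloride intracellular channel protein, gave 447, 301, 216, 469, 473 and 368 in the TLX1 tumours and 1640, 1770 and 1090 in the p53 tumours. Its difference was -1.96 ± 0.33 (adjusted p = 0.000997), and the other 2 probe sets gave -2.06 and -1.79. The p53 tumours lay above the others' highest value of 1030, while TLX1 tumours differed from the other backgrounds by 0.08. Nedd4, a ubiquitin ligase, gave 506, 128, 176, 341, 88.0 and 239 against 630, 1070 and 1190. Here TLX1 tumours were the ones that differed from the other backgrounds (-1.71 ± 0.24), and with the ratio as a covariate the difference between the groups was -1.37 and not called.

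The remaining named genes lower in TLX1 tumours were Iftap (-2.50 ± 0.71), Rab6b (a Golgi GTPase, -1.93 ± 0.42), Galc (galactosylceramidase, -1.50 ± 0.32), Lrrc59 (-1.16 ± 0.23), Mrpl37 (a mitochondrial ribosomal protein, -1.07 ± 0.18), Golga3 (adjusted p = 0.00479), Foxk1 (-0.96 ± 0.22), Slc35b1 (-0.95 ± 0.22) and Stoml2 (-0.86 ± 0.21). In 9 of the 12 all TLX1 tumours lay below all p53 tumours, beside 1.38% over all genes. The 12 were chosen by their differences in these same tumours, so this count only describes them. Clic4, Rab6b, Mrpl37 and Golga3 were the 4 called with the ratio as a covariate. Iftap was carried by p53 knockout 3 at 3910, with 280 and 189 in the other p53 tumours.

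**Figure D5:**
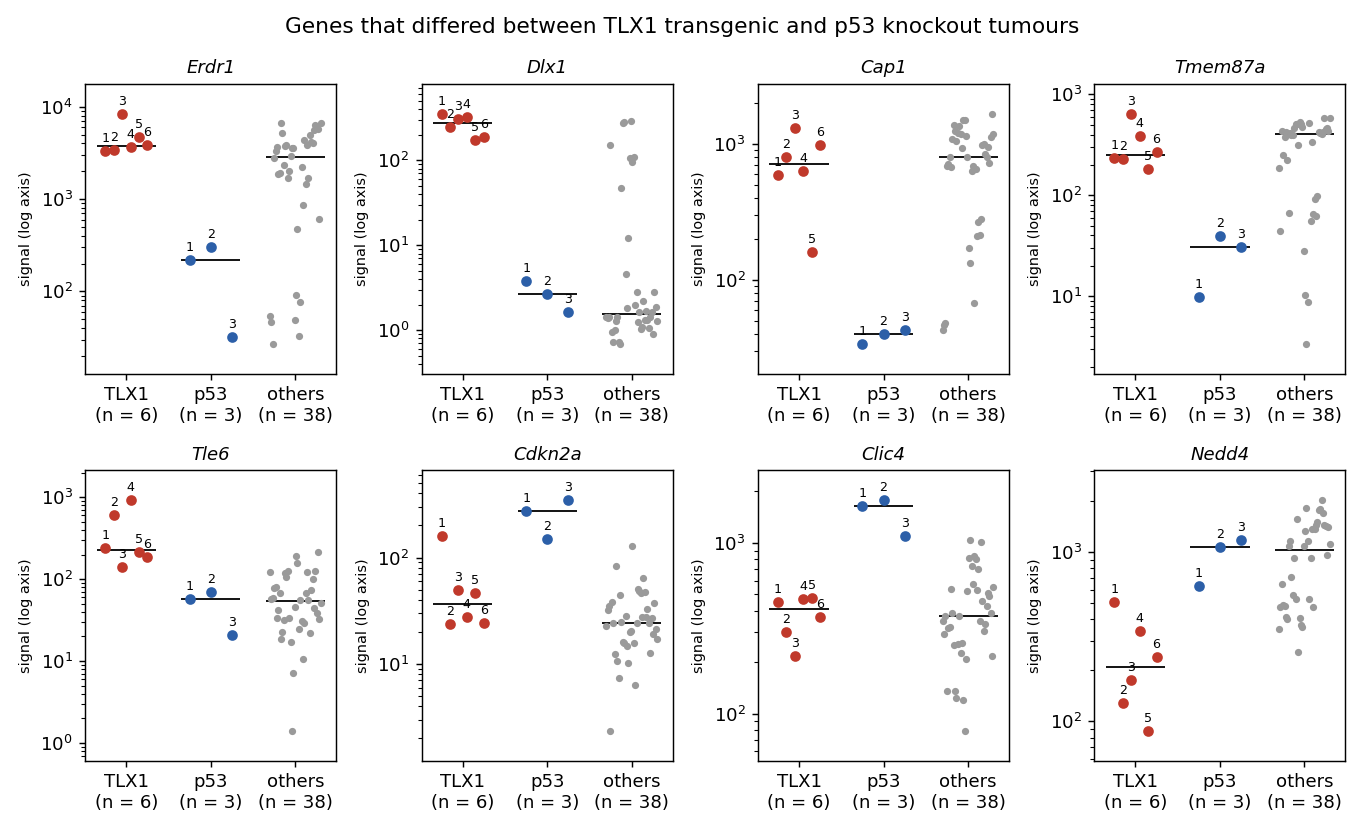
Signals (arbitrary units, log axis) of 8 genes called between TLX1 transgenic (red, n = 6) and p53 knockout tumours (blue, n = 3) with and without p53 knockout 2; the 38 other tumours are grey, bars are medians and digits tumour numbers. Erdr1, Dlx1, Cap1, Tmem87a and Tle6 do not overlap between red and blue, and in Cdkn2a only TLX1 transgenic 1, at 160, reaches the blue range.

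Of 28 tested p53 target genes, 1 was called between the groups, near the 3.44% over all genes: Fas, the death receptor, with 120, 269, 101, 190, 162 and 137 in the TLX1 tumours and 15.7, 20.1 and 79.1 in the p53 tumours. All TLX1 tumours were above all p53 tumours. The difference was 1.85 ± 0.42 (adjusted p = 0.0130) and 1.65 ± 0.48 without p53 knockout 2, not called (adjusted p = 0.0754). Low Fas was not particular to the p53 tumours, as the other backgrounds ran from 7.9 to 291.5. E2A knockout tumours gave 7.9 and 32.8 and Ikaros Plastic tumours 27.9, 33.2 and 40.9, whereas Nup98HoxD13 tumours gave 291.5, 95.3 and 68.8. All TLX1 tumours were also above all p53 tumours, without a call, for Sesn1 and Aen. Sesn1, a stress-induced sestrin, gave 445 to 838 against 414, 295 and 212, a difference of 0.95 ± 0.29 (adjusted p = 0.0536). Aen, a nuclease of apoptosis, gave 266 to 522 against 182, 232 and 234, a difference of 0.58 ± 0.21 (adjusted p = 0.106). Sesn1 and Aen were named by their low p in this same comparison, so their order only describes them. The list's median was 0.31, against 0.02 over all genes. Without p53 knockout 1, 5 targets were called higher and 1 lower in TLX1 tumours, beside 488 higher and 474 lower among all 8810 genes. With the ratio as a covariate 0 targets were called.

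The best-known targets overlapped between the groups. Cdkn1a, which encodes the CDK inhibitor p21, gave 238, 349, 164, 621, 345 and 121 against 89.6, 699 and 129, a difference of 0.36 ± 0.68. Mdm2, the ubiquitin ligase of p53, gave 204 to 342 against 243, 203 and 315. Ccng1 gave 485 to 1720 against 732, 317 and 529, a difference of 0.76 ± 0.31 (adjusted p = 0.162). Against the other 12 backgrounds, 5 of the 28 targets were lower in p53 tumours and 3 higher, beside 10.4% and 13.7% over all genes. Without p53 knockout 2 they were 3 lower (Phlda3, Ei24 and Aen) and 0 higher, beside 3.33% and 5.18% over all genes.

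Calls that depended on p53 knockout 2 included T cell regulators. Bcl11b, a commitment factor of the T lineage, gave 1620, 2690, 3360, 3860, 2390 and 2250 in the TLX1 tumours and 1940, 31.3 and 2240 in the p53 tumours. Only p53 knockout 2 was low, and the difference went from 2.14 ± 0.61 (adjusted p = 0.0407) to 0.31 ± 0.38 (adjusted p = 0.713) without it. Myb, a factor of immature thymocytes, went likewise from 2.23 to 0.45, with 44.1 in p53 knockout 2 and 2310 to 4190 in the other 8 tumours. Cd3g was not called either way, at 46.2 in p53 knockout 2.

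In the other direction the calls lost were led by Apbb2, Fam43a, Mcam (an adhesion molecule of vessels), Rsad2 and Ak4. Mcam gave 2040 in p53 knockout 2 and 5.38 to 91.7 in the other 8 tumours. Rsad2, the antiviral protein viperin, gave 25.7 to 171 in the TLX1 tumours and 122, 2000 and 667 in the p53 tumours, a difference of -2.42 ± 0.51 that was -1.51 without p53 knockout 2 (adjusted p = 0.125). Against the other backgrounds Rsad2 was still called higher in the remaining p53 tumours (2.08, adjusted p = 0.00468). Of the calls lost in favour of TLX1, Ifi202b went from 4.34 to 4.17 (adjusted p = 0.124) and Ripk4 from 3.88 to 3.87 (adjusted p = 0.102). The difference of 1700097N02Rik fell from 2.90 to 1.51 (adjusted p = 0.261) and that of Trav9d-3, a T cell receptor gene segment, from 2.54 to 1.57, whereas Dsp (desmoplakin) gave 2.89 and 2.82. Ifi202b and Ripk4 varied widely among TLX1 tumours, with Ifi202b from 11.4 to 5660 and Ripk4 from 23.4 to 1100.

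Lyl1, a basic helix-loop-helix oncogene of early progenitors, was not called with all 9 tumours and was called without p53 knockout 2. It gave 146, 1090, 128, 903, 348 and 202 in the TLX1 tumours and 93.4, 333 and 30.4 in the p53 tumours. The difference was 1.54 ± 0.48 (adjusted p = 0.0618) with and 2.30 ± 0.51 (adjusted p = 0.0209) without that tumour, and it was also called without TLX1 transgenic 1 or 3. The Lyl1 level of TLX1 tumours exceeded the other backgrounds by 2.17 ± 0.30.

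Across the 33 gene lists, 25 of 673 entries (3.71%) were called between the groups, near the 3.44% over all genes. In 14 lists none was called, in 18 more 1 or 2 were, and the tumour suppressors of T-cell leukaemia had 4 of 21 (Bcl11b and Ptpn2 higher, Cdkn2a and Nf1 lower in TLX1 tumours). Of those 4, Cdkn2a alone was called without p53 knockout 2 or without TLX1 transgenic 2, and 0 with the ratio as a covariate or without TLX1 transgenic 2, 5 and 6. None was called of 43 spindle, 40 replication, 30 DNA damage or 20 Notch pathway genes. However, 7 replication genes were higher in TLX1 tumours without p53 knockout 1, beside 488 of all 8810 genes. Without p53 knockout 3 the replication count was 5, beside 185 of all genes. Notch1 spread from 246 to 4260 in TLX1 tumours and from 847 to 3660 in p53 tumours, a difference of -0.35 ± 0.76. Cacng4, a calcium channel subunit, was higher against the other backgrounds in p53 (3.27 ± 0.51) and in TLX1 tumours (1.28 ± 0.38), with 275, 289 and 374 in the p53 tumours, and its difference between the groups just missed the threshold (-1.99 ± 0.60, adjusted p = 0.0532).

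Markers of neutrophils and thymic epithelium were higher in TLX1 tumours against the other 12 backgrounds, mostly without a call against p53. Other cell lists varied. Higher for TLX1 were 6 of 13 dendritic, 5 of 13 B cell, 2 of 9 NK and cytotoxic and 0 of 6 erythroid genes. Of 24 macrophage genes 8 were higher and 1 lower. Without TLX1 transgenic 2, 5 and 6 the dendritic, B cell, NK and macrophage genes higher for TLX1 numbered 3, 2, 1 and 7. With the ratio as a covariate they numbered 0, 1, 0 and 4. Among all 8810 genes these settings gave 794 and 284 higher. TLX1 transgenic 5 had the highest dendritic and B cell sums of the TLX1 tumours, 14800 and 32000. Of 14 neutrophil genes, 11 were higher for TLX1 and 0 for p53, and between the groups 0 were called with a median of 2.02. Over all genes 21.0% were higher for TLX1. The neutrophil list's median for TLX1 against the other backgrounds was 1.70. Without TLX1 transgenic 2 the count for TLX1 was 3 and this median 0.71. Without TLX1 transgenic 2, 5 and 6 they were 1 and 0.02, and with the ratio as a covariate 1 and -1.1. In the same settings the neutrophil median between the TLX1 and p53 tumours was 1.01, 0.30 and 0.24. S100a9, a calcium-binding protein of neutrophils, gave 55.3, 13000, 46.6, 137, 1960 and 223 in the TLX1 tumours and 18.8, 126 and 16.7 in the p53 tumours. TLX1 transgenic 2 and 5 were the high ones. Of 12 thymic epithelial genes 8 were higher for TLX1 and 0 for p53, and 1, Aire, the regulator of tissue antigens in medullary epithelium, was called between the groups (1.76 ± 0.44, adjusted p = 0.0214; 1.73 without p53 knockout 2, adjusted p = 0.0772). The Aire call was also lost without TLX1 transgenic 2 and with the ratio as a covariate. The 8 epithelial genes were 5 without TLX1 transgenic 2, 2 without TLX1 transgenic 2, 5 and 6, and 1 with the ratio as a covariate. Aire gave 10.6 to 171 in TLX1 tumours and 5.96, 4.84 and 7.21 in p53 tumours.

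The probe set for Tlx1 itself was above the array median in 1 of 47 tumours and was not tested. Its signal was 7.14 to 41.5 in TLX1 tumours, 23.9, 16.5 and 4.05 in p53 tumours and 1.53 to 160 in the others, so it did not separate the labels. The sources used here do not say whether it lies in the transgene, so it is no check of them.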

How the data were processed

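The authors deposited a linear MAS5 signal intensity (arbitrary units) for each probe set on each array, per the submitters' processing notes. Software version, scaling target and genome build were not given in the sources used here. Trimmed means (2% cut from each end) were 250.1 on every array, and array medians ran from 49.6 to 106. The number of arrays limits the precision. Intensities were not rescaled. Of 22690 probe sets, 20380 carry 1 gene symbol in the platform table and were used, while 691 carry several and 1555 carry none. The GRCm38.p6 gene table holds 20351 of their identifiers and changed 0 symbols. Probe sets above the array median in at least 2 arrays were kept and the brightest stood for its gene (8810 of 12393 genes). Values were log2(signal + 15.9), 15.9 being the 25th percentile of all signals.

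Samples were grouped by title. limma 3.58.1 in R 4.3.3 fitted 1 mean per background over all 47 arrays (lmFit, eBayes with trend, Benjamini-Hochberg), so a group of 3 is assumed to vary like the rest. On simulated data with 200 of 8810 genes changed between TLX1 and p53, 48% of changes of 1 log2 unit and 88% of changes of 2 were recovered, with 3 false calls. Named genes were the 12 largest differences each way between the groups and the 10 largest shared each way, called with and without p53 knockout 2, the 5 largest each way lost without it, up to 3 per list by lowest p, and 21 genes always named; genes just outside a count were added after their values were seen. The members, lists and rules were chosen with earlier results of these data known. Ratios were compared with an exact permutation test. Alternatives covered pseudocount, normalization, filter, probe set, trend, block, weights, covariate and left-out tumours. Same-numbered TLX1 and p53 tumours deviated together with r of 0.090, 0.216 and 0.113. These were not set against differently numbered tumours, so they cannot decide whether the numbers pair the tumours. Figures used matplotlib 3.10.9. The p53 gene is not analysed here.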

Additional observations from a re-analysis of the deposited data

Results flagged for a closer look

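Among 154 named genes, 7 had 1 TLX1 tumour far from the other 5, by a gap past Dixon's critical value for 6 samples. Chance alone gives about 1 such group in 20. TLX1 transgenic 1 was far out in 4 of them. It had the highest Cdkn2a signal, 160 against 49.3 in the next tumour, the highest Pecam1 (an endothelial adhesion molecule), 331 against 172, and the highest Meis2 (a homeobox cofactor), 34.2 against 6.88. It had the lowest Dglucy, 101 against 168. TLX1 transgenic 6 was highest in Prss16, a protease of thymic cortical epithelium, at 740 against 98.7, and in Aen at 522 against 338. TLX1 transgenic 3 was highest in Erdr1, at 8440 against 4650. The groups of 3 p53 tumours were not examined in this way.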

How the results depend on the processing

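Pseudocount, quantile normalization, filters and the trend kept every count within 1.5 times: 257 to 380 genes between TLX1 and p53. The probe set of largest interquartile range moved the genes lower in both from 480 to 740 and the share of TLX1 against p53 calls that were higher from 54.1% to 43.2%; it turned Tfrc between the groups to -0.0945 and Rgs5 in TLX1 against the others to -0.84. The 9 arrays alone gave 2 calls between the groups, the replicate block 83 (79 of them called without it), the 3'/5' ratio 54, array weights 4 and leaving out TLX1 transgenic 2, 5 and 6 together 58. The ratio left 400 TLX1 calls against the others, 178 genes higher and 88 lower in both; array weights left 444 p53 calls, 171 and 145; leaving out the 3 TLX1 tumours left 1212 TLX1 calls, 387 and 255. An added alternative, chosen after seeing the data, left only p53 knockout 3, with 287 p53 calls against the others, 70 higher and 48 lower in both. Causes were not tested. Leaving out 1 tumour at a time gave 92 (p53 knockout 2) to 962 (p53 knockout 1) calls between the groups, 494 without TLX1 transgenic 1 and 184 without TLX1 transgenic 2; 2387 to 3404 TLX1 calls and 749 to 2586 p53 calls against the others; 300 to 764 genes higher and 199 to 598 lower in both; and 0 to 2 TLX1 tumours nearest to a p53 tumour. Over all alternatives, the named genes' called values stayed called in the same direction 1618 times, lost the call 340 times and turned sign 2 times; values not called gained a call 85 times and turned sign without one 85 times. With 3 p53 tumours, a missed call does not show that groups were alike.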
